A study of Mus musculus with 2 samples.

Results

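Neutrophils were 1 of 12 clusters that the authors named in single-cell RNA sequencing of primary mouse liver cells, and 226 genes were listed for this cluster. The members described here are all genes that the authors' table of all cells lists for the cluster named Neutrophil, in which each cluster is set against all other cells. The whole table holds 3742 rows for 1755 genes, so that 12.9% of its genes were listed for neutrophils. The cells came from 2 groups of wild-type BALB/c mice, which the study describes as fasted. The mice received daily intraperitoneal injections for 5 days of PBS or of recombinant interleukin-33 (rIL-33, 0.5 µg). This cytokine activates group 2 innate lymphoid cells. Per the study's methods, hepatocytes were isolated from mice of 8 to 10 weeks by 2-step enzymatic perfusion of the liver, without cell sorting, and cells of other types came along with them. Each condition gave 1 droplet library (10x Genomics 3′ chemistry), and how many mice went into a library is not given in the sources used here. The table pools both libraries, so no neutrophil value can be split by treatment, no test was run, and no value below has a replicate error. The depth is unknown.

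Neutrophils are short-lived phagocytes that leave the bone marrow for the blood and enter tissues along gradients of chemoattractants. They kill microbes by releasing granules loaded with proteases and antimicrobial proteins, and by making superoxide with an NADPH oxidase. In the liver they are found in the sinusoids, the capillaries in which Kupffer cells, the resident macrophages, also sit, and they gather there in inflammation and after injury.

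Each row gives 2 shares, those of the cluster's cells and of all other cells in which the gene's value is above 0. From the balance of these shares over 1115 genes listed for at least 2 clusters, neutrophils made up 2.10% of all cells and 20.7% of the cells outside the 5 hepatocyte clusters. The cells outside the hepatocyte clusters made up 10.2% of all cells, so that the share in all other cells is set mainly by hepatocytes. In neutrophils as in these other cells, a value above 0 is not in itself expression of the gene. Droplets also take up free RNA, whose part was not tested. Shares of the same genes in hepatocyte clusters also differed between the authors' 2 tables, and whether the values were corrected or integrated before the shares were taken is not given in the sources used here. A gene is said to be found in a cell below only in the sense that its value there was above 0.

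The cluster carried the genes by which neutrophils are known. S100a8 and S100a9, which form calprotectin, the most abundant protein pair of the neutrophil cytosol, both had a value above 0 in 99.6% of the cluster's cells. Retnlg, a resistin-like secreted protein of neutrophils, had a share of 93.2% there. In all other cells the shares were 46.9% for S100a8, 47.5% for S100a9 and 24.2% for Retnlg. Of 11 genes taken as neutrophil markers, 6 were listed for the cluster and for no other cluster: these 3, the collagenase gene Mmp8 (82.3% of neutrophils and 9.1% of all other cells), the chemokine receptor gene Cxcr2 (74.3% and 1.3%) and the G-CSF receptor gene Csf3r (65.8% and 10.1%). The other 5 (Ly6g, Mmp9, Camp, Ngp and Ltf) were listed for no cluster. Every listed row has a share of at least 25% in the cluster or outside it, so an unlisted gene may still have been present in fewer cells. By the same rule, a gene under 25% outside could be listed only with the higher share in neutrophils. For such genes the counts of higher shares given below were fixed by the listing and are not results. The counts of listed genes given below stand beside the 12.9% of all genes in the table that were listed for neutrophils, a share taken over genes listed for some cluster.

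Genes that mark other cells were looked up on the list. Of 10 T and NK cell markers 1 was listed for neutrophils, Cd3d, a chain of the T cell receptor complex, with a share of 43.0% against 57.4% in T cells. Its partners Cd3e, Cd3g, Trac and Trbc2 were listed for T cells and not for neutrophils. Of 10 Kupffer cell markers 1 was listed, the iron exporter gene Slc40a1, with a lower share in neutrophils (32.5%) than in all other cells (36.2%) or in Kupffer cells (92.7%). None of the 7 monocyte, 7 B cell, 7 eosinophil, 5 basophil and mast cell, 4 platelet, 6 erythroid, 6 endothelial, 6 stellate and 9 hepatocyte markers was listed for neutrophils. An unlisted marker can still be found in neutrophils. The hepatocyte marker Alb had a share of 100% in Hepatocyte4 and of 100% in all cells outside it, neutrophils included. Listed for any cluster were 6 T and NK cell, 9 Kupffer cell, 4 monocyte, 5 B cell and 2 eosinophil markers. For basophils and mast cells this number was 0, for platelets 1, erythroid cells 1, endothelial cells 5, stellate cells 5 and hepatocytes 6. Beside the 12.9% of listed genes that were listed for neutrophils, these counts do not show that other cells were absent.

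The promoters of the leading marker genes are shown because the list itself holds Spi1, the gene of the myeloid factor PU.1. Spi1 had a share of 69.6% in neutrophils and 10.4% in all other cells, and was also listed for Kupffer cells (40.4%) and B cells (38.9%). The sequences are RefSeq windows on GRCm38.p6 from 250 bases before to 50 bases after the start of the gene, 5′ to 3′ on the gene's strand. Capitals mark GAGGAAG, the core of a PU.1 site, and TTGCNNAA, a C/EBP type site in which N is any base, each searched on both strands.
S100a8, chr3:90668821-90669120, plus strand: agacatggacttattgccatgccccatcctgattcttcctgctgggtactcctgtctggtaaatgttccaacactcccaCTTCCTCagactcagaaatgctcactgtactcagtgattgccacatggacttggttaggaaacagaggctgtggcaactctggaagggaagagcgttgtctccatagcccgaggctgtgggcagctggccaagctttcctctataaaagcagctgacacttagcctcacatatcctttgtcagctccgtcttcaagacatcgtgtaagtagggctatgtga
S100a9, chr3:90695672-90695971, minus strand: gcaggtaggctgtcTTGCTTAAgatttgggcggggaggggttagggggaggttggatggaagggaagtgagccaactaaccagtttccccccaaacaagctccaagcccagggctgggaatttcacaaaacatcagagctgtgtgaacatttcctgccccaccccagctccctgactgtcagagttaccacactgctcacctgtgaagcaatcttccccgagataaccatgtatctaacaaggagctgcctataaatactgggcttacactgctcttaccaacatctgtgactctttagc
Retnlg, chr16:48872358-48872657, plus strand: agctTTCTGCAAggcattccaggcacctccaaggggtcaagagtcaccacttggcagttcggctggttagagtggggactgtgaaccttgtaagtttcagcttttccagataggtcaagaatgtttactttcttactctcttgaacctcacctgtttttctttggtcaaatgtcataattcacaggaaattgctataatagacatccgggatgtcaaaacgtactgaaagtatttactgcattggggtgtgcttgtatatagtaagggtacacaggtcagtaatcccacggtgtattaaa
Mmp8, chr9:7558179-7558478, plus strand: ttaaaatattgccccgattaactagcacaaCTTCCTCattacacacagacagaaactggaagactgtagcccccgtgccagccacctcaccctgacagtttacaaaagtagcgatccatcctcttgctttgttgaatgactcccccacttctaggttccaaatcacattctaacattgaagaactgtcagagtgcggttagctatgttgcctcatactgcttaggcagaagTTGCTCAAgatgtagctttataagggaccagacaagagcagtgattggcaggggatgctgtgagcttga
Csf3r, chr4:126024409-126024708, plus strand: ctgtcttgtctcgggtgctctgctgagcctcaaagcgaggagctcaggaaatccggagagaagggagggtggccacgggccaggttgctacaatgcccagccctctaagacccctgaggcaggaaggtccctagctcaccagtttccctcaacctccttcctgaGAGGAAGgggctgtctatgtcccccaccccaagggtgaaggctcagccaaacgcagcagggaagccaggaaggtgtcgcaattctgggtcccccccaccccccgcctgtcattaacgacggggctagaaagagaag
S100a8 and Csf3r held the PU.1 core, S100a9 and Retnlg the C/EBP type site, and Mmp8 held both. The Cxcr2 window held neither. Among the 26 genes listed for no other non-hepatocyte cluster, 11 windows (42.3%) held GAGGAAG and 7 (26.9%) held TTGCNNAA, beside 13.5% and 10.8% of all 27025 promoter windows in the reference. Over the whole list, 176 of the 226 genes had a window, and of these 44 (25%) held GAGGAAG and 25 (14.2%) held TTGCNNAA. With fewer than 80% of the list covered, these shares are not read as those of the list. A match describes letters and shows no binding, and no genes of C/EBP factors (Cebpa, Cebpb, Cebpd, Cebpe) were listed for any cluster.

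Over the 226 genes the median share was 41.6% in neutrophils and 22.0% in all other cells. The share was higher in neutrophils for 185 genes and lower for 41, which is 81.9% higher beside 93.8% of the rows of all clusters. In neutrophils the shares ran from 5.5% to 99.6%, with 10 genes at 90% or more and 76 genes at 50% or more. In all other cells they ran from 0.6% to 83.4%, and 35 genes were under 5%.

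**Figure D1:**
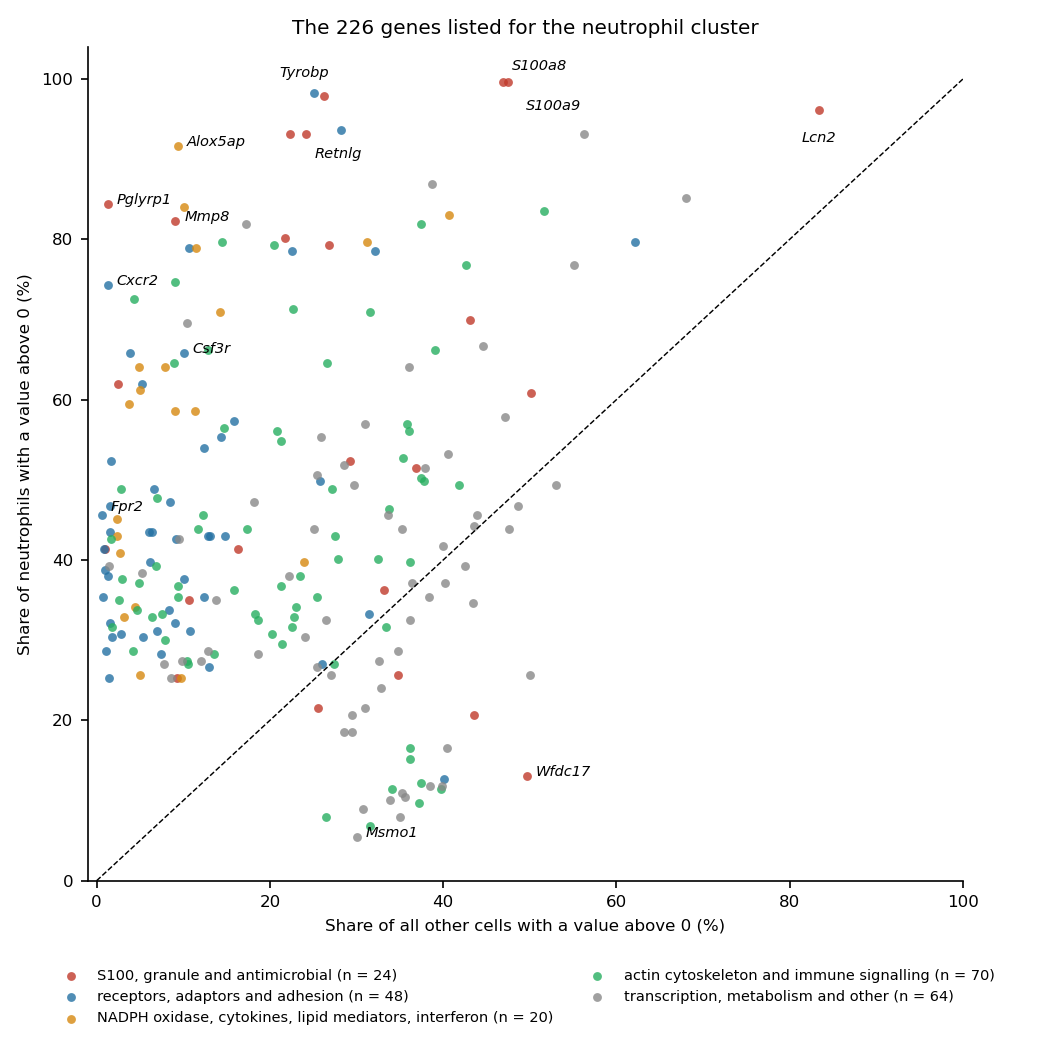
Each point is 1 of the 226 genes listed for neutrophils, with its share of all other cells on the x axis and its share of neutrophils on the y axis (both in %, cells with a value above 0), coloured by group of function. The dashed line marks equal shares: 185 genes lie above it and 41 below, and the chemoattractant receptor genes Cxcr2 and Fpr2 lie close to the left edge.

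The S100 and resistin-like genes had the largest median share of the 12 classes, 97.9%, and all 5 were also found in at least 22.3% of all other cells. S100a11 (97.9% of neutrophils, 26.3% of all other cells) and S100a6 (93.2% and 22.3%), calcium-binding proteins of many cell types, were also listed for T cells (71.6% and 68.9%) and B cells (54.7% and 38.9%). The 4 listed S100 genes were all higher in neutrophils, and S100a8, S100a9 and S100a6 lie close together on chromosome 3, with S100a8 (90668978 to 90670035) 22.6 kb from S100a9 (90692632 to 90695721) in the GENCODE annotation of GRCm38. Lcn2, lipocalin-2, a siderophore-binding protein of secondary granules that hepatocytes also secrete in the acute phase, differed little: 96.2% of neutrophils and 83.4% of all other cells, with 100% in the cluster Hepatocyte5.

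Of the granule genes, Pglyrp1, a peptidoglycan-binding protein of secondary granules, had the largest difference of all 226 genes, 84.4% against 1.3%, or 83.1 percentage points. T cells were the only other cells it was listed for, at 39.9%. Mmp8 followed at 73.2 points. Lyz2, lysozyme, reached 80.2% in neutrophils and 21.8% in all other cells, and Kupffer cells (57.9%) and B cells (30.4%) were listed for it as well. Mcemp1, a membrane protein of mast cells and myeloid cells, stood at 62.0% and 2.5%, and Cstdc4, a member of the stefin family of cysteine protease inhibitors, at 41.4% and 1.0%. Slpi, an inhibitor of neutrophil elastase, was at 41.4% and 16.3%.

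By granule type, 2 of 9 primary, 3 of 10 secondary and 2 of 8 tertiary granule genes were listed for neutrophils. Primary granules are filled early in development in the bone marrow and secondary and tertiary granules later. The listed genes were Lyz2 and Cd63 (35% and 10.7%) from the primary list, Mmp8, Pglyrp1 and Lcn2 from the secondary list, and Mmp8 and Slpi from the tertiary list. Mmp8 stood on both the secondary and the tertiary list, so no granule type is read from these counts. Of the rest of the tertiary list, Mmp9, Mmp25, Arg1, Adam8 and Cst7 were listed for no cluster, and Slc11a1 for Kupffer cells only. Mpo, Elane, Prtn3 and Ctsg, the peroxidase and serine proteases of primary granules, were listed for no cluster. The 19 genes classed as granule or antimicrobial had medians of 51.5% in neutrophils and 26.8% in all other cells, and 4 of them had the lower share in neutrophils: Wfdc17 (13.1% and 49.7%), the lysosomal enzyme gene Ppt1 (20.7% and 43.6%), Plbd1 (25.7% and 34.8%) and the protease gene Ctse (21.5% and 25.6%).

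The NADPH oxidase has 2 membrane subunits and a cytosolic complex that joins them on activation. Its genes on the list were all higher in neutrophils. Cyba, the small membrane subunit p22phox, had the largest share of them, 83.1%, and was also the most widespread, with 40.7% of all other cells. Rac2, the GTPase that activates the complex, stood at 70.9% and 14.2%, below T cells (81.8%). The cytosolic subunit genes Ncf4 (p40phox) and Ncf1 (p47phox) were scarcer outside the cluster, with 59.5% and 3.7% for Ncf4 and 40.9% and 2.7% for Ncf1. These genes were also listed for B cells, where the shares of Ncf4 (38.1%) and Ncf1 (30.4%) were lower and that of Cyba was close (85.0%). In Kupffer cells Ncf1 was close to neutrophils (39.1%), and Cyba (61.9%) and Rac2 (34.1%) were lower, whereas Ncf4 was not listed for them. Cybb, the catalytic membrane subunit, was not listed for neutrophils but was listed for Kupffer cells (63.2%) and B cells (55.1%).

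The receptors through which neutrophils sense chemoattractants and growth factors had the smallest shares outside the cluster. Of 14 such receptors 7 were listed, all higher in neutrophils, with medians of 45.6% and 1.3%. Cxcr2, which binds CXC chemokines and draws neutrophils out of the marrow and into tissue, was found in 74.3% of neutrophils and 1.3% of all other cells. Fpr2 (45.6% and 0.6%) and Fpr1 (35.4% and 0.7%), receptors of formylated bacterial peptides, had the smallest shares in other cells of the whole list, and their genes lie 3.88 kb apart on chromosome 17. C5ar1, the receptor of the complement fragment C5a, stood at 28.7% and 1.1%. These 4 genes and Csf3r were listed for no other cluster. Igf1r, the IGF-1 receptor (46.8% and 1.5%), was shared with the cluster HSC / fibroblast (89.5%), and Il17ra, an interleukin-17 receptor chain (26.6% and 13%), with T cells (35.1%) and Kupffer cells (28.1%). Cxcr4, Ltb4r1, Ptafr and Csf2rb were listed for other clusters and not for neutrophils.

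**Figure D2:**
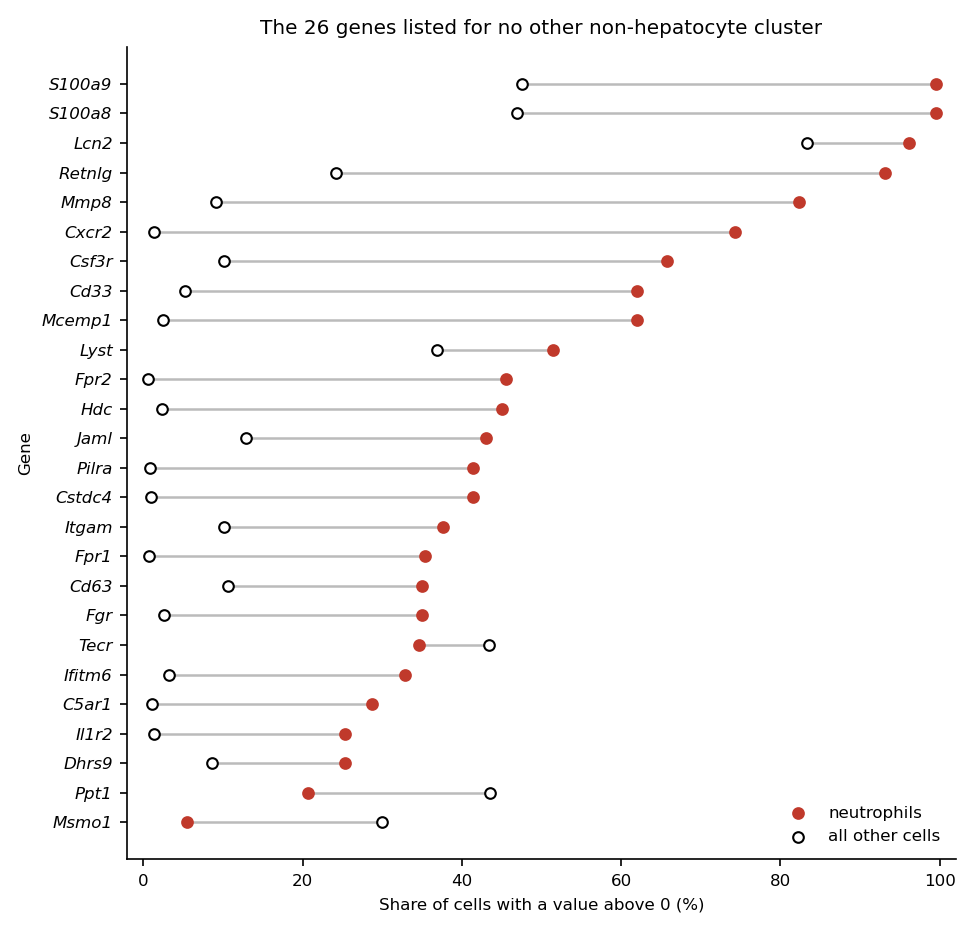
Shares of cells with a value above 0 (x axis, %) in neutrophils (filled) and in all other cells (open) for the 26 genes listed for neutrophils and for no other non-hepatocyte cluster (y axis, ordered by share in neutrophils). Cxcr2, Fpr1, Fpr2, Pilra, Cstdc4, C5ar1 and Il1r2 have open points under 2%, whereas those of S100a8, S100a9 and Lcn2 lie between 46.9% and 83.4%.

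Genes of adhesion and rolling were shared with lymphocytes at a rate not far from that of the whole list. Of 12 such genes 10 were listed, 9 of them higher in neutrophils, with medians of 40.3% and 10.45%. T cells listed 7 of the 10 and B cells 7, beside 58.0% and 54.9% of the whole neutrophil list. Selplg, the ligand PSGL-1 by which leukocytes roll on vessel walls, was found in 54.0% of neutrophils and 12.4% of all other cells and was more frequent in T cells (70.3%). The beta2 integrin genes followed. Itgb2, the common beta chain, was at 43.5% and 6.0%, with T cells close at 41.9%, B cells at 35.2% and Kupffer cells at 30.5%. Itgam, the alpha chain of Mac-1, was at 37.6% and 10.1% and was listed for no other cluster. Itgal, the alpha chain of LFA-1 (31.2% and 10.8%), was more frequent in Kupffer cells (50%), and Itga4 (32.1% and 9.0%) in B cells (64.0%). Jaml, a junctional adhesion molecule of leukocytes, was at 43.0% and 12.9% and was listed for neutrophils alone. Alcam was the exception, with 12.7% of neutrophils and 40.1% of all other cells.

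Fc receptors and ITAM adaptors, which carry signals from antibody and lectin receptors to tyrosine kinases, included 2 of the 10 genes found in 90% or more of neutrophils. Tyrobp (DAP12) was found in 98.3% of neutrophils and 25.1% of all other cells, and Fcer1g, the Fc receptor gamma chain, in 93.7% and 28.2%. Kupffer cells were at 58.9% and 59.9% for these genes and B cells at 36.0% and 31.6%. The low-affinity Fc receptor gene Fcgr3 was level in neutrophils and Kupffer cells, at 55.3% in each. Fgr, a Src family kinase of myeloid cells, was found in 35% of neutrophils and 2.6% of all other cells and was listed for neutrophils alone. Of 12 genes in this group 7 were listed and all 7 were higher in neutrophils.

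The paired and C-type lectin receptors, activating and inhibitory receptors of myeloid cells that occur in gene families, were listed for 12 of 21 genes, all higher in neutrophils, with medians of 38.4% and 3.5%. Cd33, a sialic acid-binding lectin, had the largest share, 62.0% against 5.2%, and Pilra, an inhibitory receptor, 41.4% against 0.8%, and these 2 were listed for no other cluster. The other 10 were all listed for Kupffer cells, beside 55.3% of the whole neutrophil list. Among these, Nfam1 (43.5% of neutrophils and 38.7% of Kupffer cells), Pira2 (43.5% and 32.8%), Lilrb4a (39.7% and 28.1%), Cd300lf (38.8% and 26.5%), Pirb (38.0% and 28.5%) and Clec4a2 (30.4% and 27.5%) were more frequent in neutrophils. Sirpa, the receptor of CD47 (27% and 68.9%), Cd300a (33.8% and 51.7%), Clec12a (28.3% and 37.1%) and Igsf6 (32.1% and 33.4%) were more frequent in Kupffer cells. Pira2 and Pirb, like other members of such families, resemble each other in sequence, and how reads were divided between near-identical copies is not known here.

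**Figure D3:**
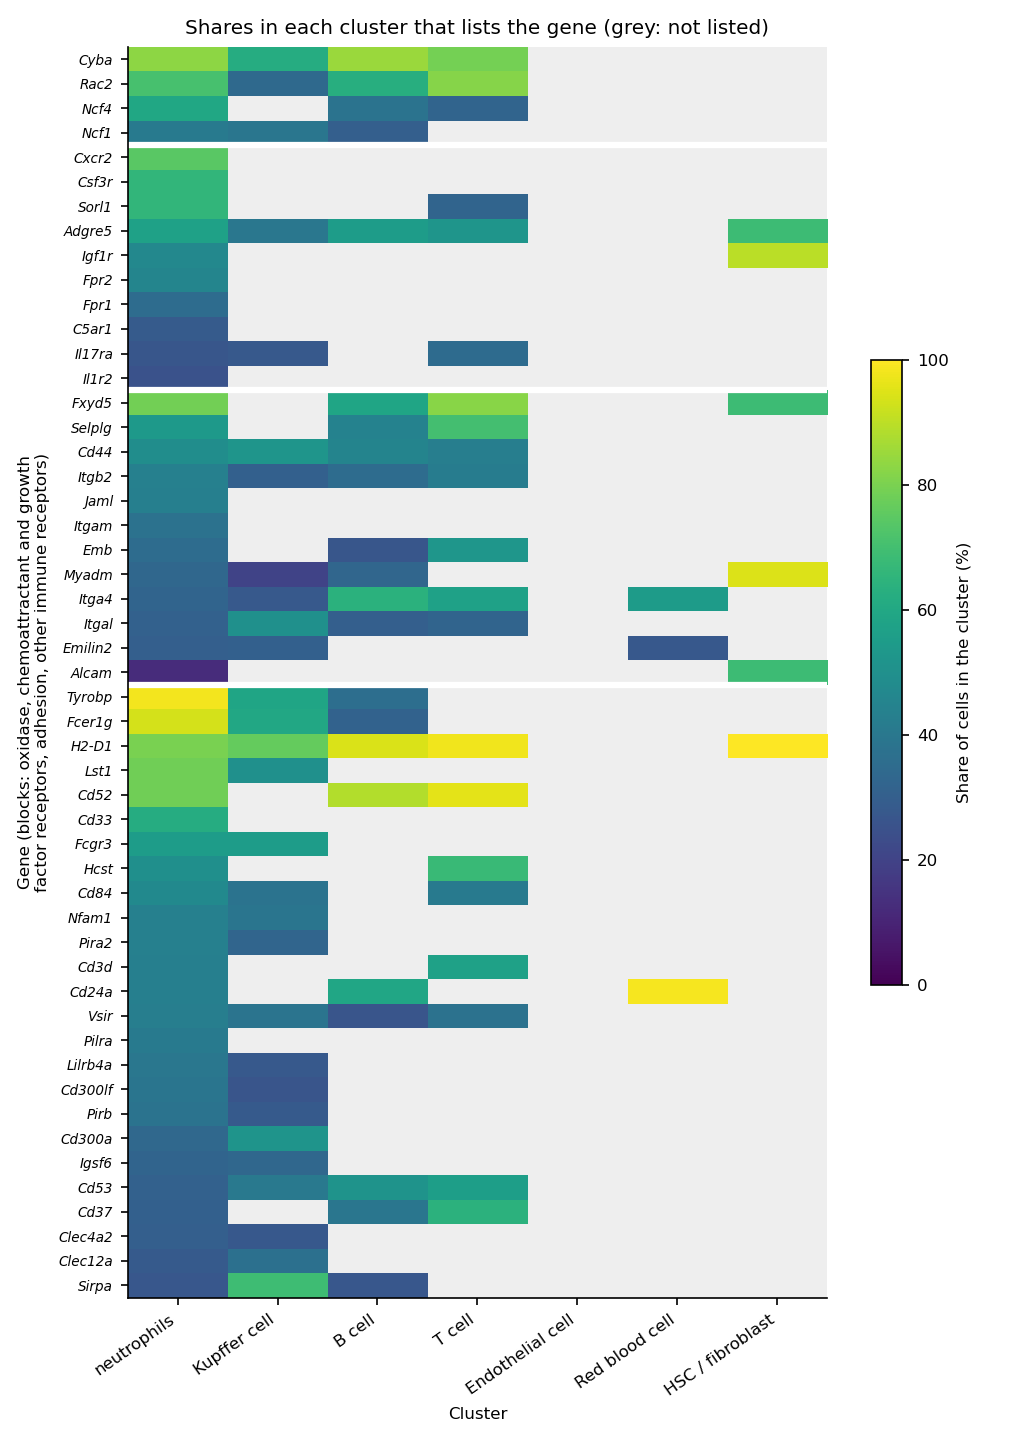
Colour gives the percentage of cells whose value was above 0 in neutrophils and in each other non-hepatocyte cluster (x axis) for genes of 4 classes (y axis, blocks from top to bottom: NADPH oxidase, chemoattractant and growth factor receptors, adhesion, other immune receptors); grey means that the gene was not listed for that cluster. The receptor block holds 6 genes of 10 coloured for neutrophils alone, beside 26 of the whole list of 226. The bottom block shares 18 of its 25 genes with Kupffer cells, beside 55.3% of the whole list.

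The 10 cytokine and lipid mediator genes on the list were all higher in neutrophils, with medians of 58.6% and 8.45%. Alox5ap, which presents arachidonic acid to 5-lipoxygenase in leukotriene synthesis, was found in 91.6% of neutrophils and 9.4% of all other cells, a difference of 82.2 points, with B cells as the only other listed cluster (28.3%). Hdc, histidine decarboxylase, which makes histamine, was at 45.1% and 2.4% and was listed for neutrophils alone. Cyp4f18, a leukotriene B4 hydroxylase, was at 43.0% and 2.4%, and Pla2g7, which degrades platelet-activating factor, at 58.6% and 11.3%, below Kupffer cells (70.2%). Alox5, Lta4h and Ltc4s, the enzymes next to Alox5ap in the pathway, were listed for no cluster.

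Il1b, the inflammatory cytokine interleukin-1 beta, was found in 58.6% of neutrophils, 35.4% of Kupffer cells and 9.0% of all cells outside the neutrophil cluster. Il1r2, the decoy receptor of interleukin-1, was at 25.3% and 1.4%. Il1rl1, the receptor of the injected IL-33, was listed for no cluster. Of 8 chemokine genes 1 was listed for neutrophils, Ccl6, at 79.7% of neutrophils, 77.8% of Kupffer cells and 31.2% of all other cells. Ltb, lymphotoxin beta, was at 64.1% and was more frequent in T cells (85.8%). Anxa1, the pro-resolving annexin A1, was at 78.9% and 11.5%, with T cells as the only other listed cluster (37.2%).

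Interferon-related genes were listed for 6 of 15, 5 of them higher in neutrophils. Slfn2 (84.0% and 10.1%) and Slfn1 (61.2% and 5.0%), Schlafen genes that lie 46.2 kb apart on chromosome 11, and Ifitm6 (32.9% and 3.2%) had the larger differences. Slfn2 was also listed for T cells (63.5%), B cells (35.2%) and Kupffer cells (34.8%), and Slfn1 for T cells (33.1%). Isg15, Ifit3, Rsad2 and Ifitm1 were listed for other clusters only.

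Among transcription factors, 7 of 16 myeloid factor genes were listed, 6 with the higher share in neutrophils. Mxd1, an antagonist of MYC, had the largest share, 81.9% against 17.3%, followed by Spi1. Klf2 (57.0% and 31.0%), Klf6 (51.9% and 28.6%) and Lmo4 (43.9% and 25.1%) differed less, with T cells at 57.4% for Klf2 and HSC / fibroblast at 68.4% for Lmo4. Junb was at 44.3% and 43.6%, and Fos had the lower share in neutrophils (27.4% and 32.6%). Of 10 cell cycle genes 2 were listed for neutrophils, the chromatin protein gene Hmgb2 (86.9% and 38.7%, with 93.8% in the cluster Red blood cell) and the histone gene H2afz (46.8% and 48.7%), whereas Mki67, Tyms, Pclaf, Birc5 and Cdk1 were listed for other clusters only. H3f3a, a histone H3.3 gene whose protein is also made from H3f3b, was found in 93.2% of neutrophils, 56.3% of all other cells and 98.8% of the cluster Red blood cell.

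Genes of the actin cytoskeleton and motility were the largest class, with 37 genes, 34 of them higher in neutrophils, and medians of 40.1% and 21.4%. Every one of the 37 was also listed for another non-hepatocyte cluster, beside 88.5% of the whole neutrophil list. In 29 cases this was T cells, beside 58.0% of the whole list. Coro1a, coronin-1A, was found in 74.7% of neutrophils and 9.1% of all other cells, but in 80.4% of T cells. Lcp1, the actin bundler L-plastin, was most frequent in neutrophils (81.9%), ahead of Kupffer cells (70.2%). Lsp1, a leukocyte actin-binding protein classed under signalling, was at 72.6% and 4.3%, with T cells close at 69.6%. Arhgdib, an inhibitor of GTPase cycling, was at 79.3% beside 85.1% in T cells.

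Of the immune signalling class (33 genes, medians 36.3% and 21.3%), 32 genes were listed for another non-hepatocyte cluster, again beside 88.5% of the whole list. Ptprc, the leukocyte antigen CD45, was found in 79.7% of neutrophils, 93.2% of T cells, 64.8% of B cells and 52.3% of Kupffer cells. Stk17b, a kinase of leukocytes, was most frequent in neutrophils (64.6%, against 59.5% in T cells). Samsn1, an adaptor, was at 42.6% of neutrophils and 1.6% of all other cells, with T cells at 46.6%.

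Across the whole list, 200 of the 226 genes (88.5%) were also listed for at least 1 of the 6 other non-hepatocyte clusters. Over the table, 78.6% of all 1755 genes were listed for at least 1 of these 6, and of the lists of the 6 themselves 63.0% to 92.9% were also listed for another non-hepatocyte cluster. T cells shared 131 genes, which are 58.0% of the neutrophil list and 21.9% of the T cell list, beside 34.1% of all genes in the table that were listed for T cells. Kupffer cells shared 125 (55.3% and 25.1%, beside 28.4% of all genes) and B cells 124 (54.9% and 24.3%, beside 29.1%). The shared genes were fewer for HSC / fibroblast (57 genes, 25.2% and 10.7%, beside 30.5%), the cluster Red blood cell (40, 17.7% and 12.5%, beside 18.2%) and endothelial cells (16, 7.08% and 16.3%, beside 5.58%). HSC / fibroblast made up 0.171% of all cells, so its shares rest on few cells. Resf1 and Serinc3 were listed for all 6.

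**Figure D4:**
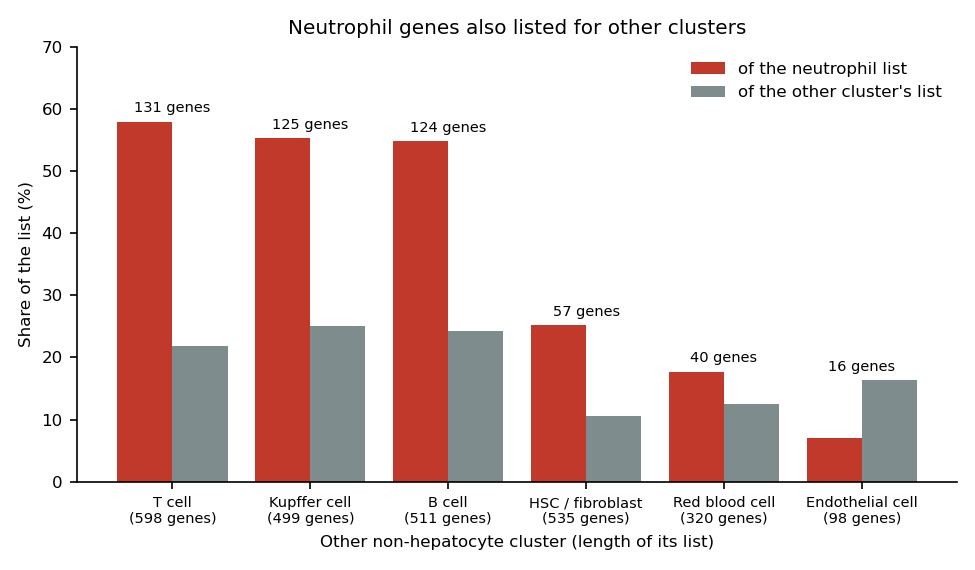
Bars give the genes shared between neutrophils and each other non-hepatocyte cluster (x axis, with the length of its list) as a share of the neutrophil list (red) and of the other cluster's list (grey), in % on the y axis. The red bars of T cells, Kupffer cells and B cells reach 54.9% to 58.0%, and the grey bars stay at or under 25.1%.

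Neutrophils had the highest share among the listing non-hepatocyte clusters for 46 of the 200 shared genes, and another cluster was highest for 154. The 46 were led by Tyrobp, S100a11, Fcer1g, S100a6, Alox5ap, Pglyrp1 and Slfn2. Against Kupffer cells neutrophils were higher for 62 of 125 shared genes and lower for 63, with medians of 43.5% and 44.4%. Against T cells they were higher for 36 of 131 and lower for 95, with medians of 42.6% and 54.1%. Shares also depend on how many transcripts were counted per cell in a cluster, which is unknown here, so these orders are not set at equal depth.

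The 26 genes listed for no other non-hepatocyte cluster had a median share of 42.2% in neutrophils and 8.85% in all other cells, beside 41.6% and 22.75% for the 200 shared genes. Picking genes that are not listed elsewhere favours genes scarce outside the cluster, so this contrast is not read as a result. Of the 26, 3 were listed for the cluster Hepatocyte5 (Lcn2, Lyst and Tecr), and the other 23 for neutrophils alone. Lyst, a regulator of lysosome and granule size, was at 51.5% in neutrophils and 73.5% in Hepatocyte5. The 3 with the lower share in neutrophils were Tecr, Ppt1 and Msmo1, a sterol synthesis enzyme found in 5.5% of neutrophils and 30.0% of all other cells, the smallest share of the list in the cluster.

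For each gene the neutrophils and the other non-hepatocyte clusters that list it can be taken out of the total, which leaves a share for the remaining cells, mostly hepatocytes. The median of this remaining share was 20.7% over the 226 genes. It was 0.773% for Pglyrp1, below its 1.3% in all other cells. For Tyrobp it was 23.9% and for S100a6 21.3%, close to the 25.1% and 22.3% in all other cells. This closeness was fixed by the sizes of the clusters taken out and is not a result. Kupffer cells made up 2.68% of all cells, B cells 2.19% and T cells 1.32%.

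The 41 genes with the lower share in neutrophils held 14 genes in metabolism, trafficking and other, 12 in transcription, chromatin and RNA, 7 in immune signalling, 4 in granule and antimicrobial, 3 in actin cytoskeleton and 1 in adhesion. Their median share was 18.6% in neutrophils and 35.6% in all other cells. Wfdc17 had the most negative difference, -36.6 points, and was found in 78.5% of Kupffer cells. Among the next genes in that order were the kinase gene Map4k4 (11.4% and 39.7%), the phospholipid synthesis gene Cept1 (11.8% and 39.9%), Alcam, the corepressor subunit gene Gps2 (8.0% and 35%), the chromatin protein gene Psip1 (11.8% and 38.5%), the kinesin gene Kif2a (12.2% and 37.4%), Phip (10.5% and 35.6%) and the phosphatase gene Dusp16 (6.8% and 31.5%).

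The shares of hepatocytes on which such differences rest were not the same in the authors' tables. The table of hepatocytes, which sets each of the 5 hepatocyte clusters against the others, lists 32 of the 226 genes. For 18 of them the same hepatocyte cluster is listed in both tables, 22 gene and cluster pairs in all. In these pairs the table of all cells gave a median of 4.9 points more, from 0 to 48.0 points, and never less. App, the amyloid precursor protein gene, was found in 79.6% of Hepatocyte4 cells in the table of all cells and in 31.6% in the table of hepatocytes. Phip was at 76.8% and 29.1% in Hepatocyte5, and Neat1, a nuclear long noncoding RNA, at 94.7% in both tables. Over all 825 gene and cluster pairs in both tables the median gap was 10.5 points.

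**Figure D5:**
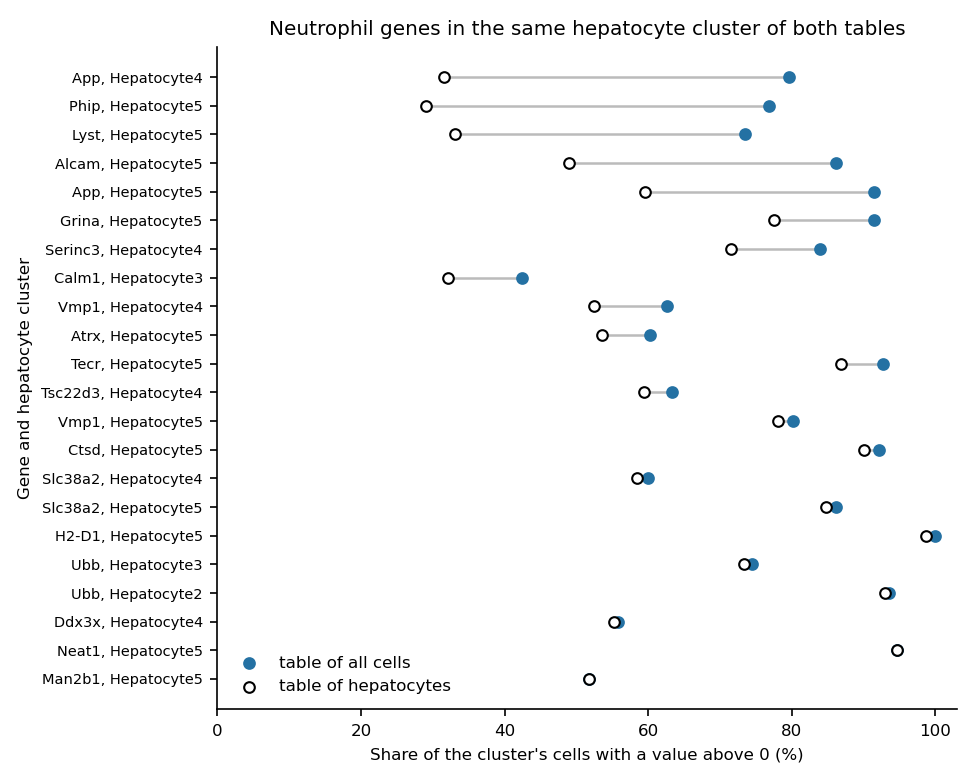
Share of the cells of a hepatocyte cluster with a value above 0 (x axis, %) for the neutrophil genes listed for that cluster in both tables (y axis, gene and cluster), in the table of all cells (filled) and the table of hepatocytes (open). No filled point lies to the left of its open point, and the gap reaches 48.0 points for App in Hepatocyte4.

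Of the 41 genes with the lower share in neutrophils, 14 were in the table of hepatocytes. That table gives shares by cluster only, so shares over all hepatocytes were estimated with cluster sizes fitted to it. The median of these estimates for the 14 genes was 13.8%. Beside it stood a median remaining share of 37.7% in the table of all cells and a median neutrophil share of 23.6%. For each of the 14 the neutrophil share was above the hepatocyte share of the second table, though below that of all other cells in the first. Phip, for example, was at 10.5% in neutrophils, 3.29% over hepatocytes in the second table and 35.4% in the remaining cells of the first. The 18 genes with the higher share in neutrophils had medians of 13.3% and 38.7% in the same order, and of 59.3% in neutrophils. Neutrophil shares on the scale of the second table are not given, so these values stand side by side and were not compared further.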

How the data were processed

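Values came from 2 deposited tables that pool both libraries. Per the study's methods, the authors used Cell Ranger (version not given in the sources used here) on mm10 for alignment and UMI counting. Cells were kept with 200 to 3000 genes, the upper limit being set against doublets, and with no more than 50% mitochondrial genes. The authors normalised every cell to a total of 10000, applied a natural log, and clustered the merged cells with Seurat on 50 principal components at resolution 5. No doublet caller was run here. In each row the deposited fractions say how many of the cluster's cells, and of the other cells, had a value above 0 for the gene, and they are printed here as percentages. Whether these are counted or corrected values is not given in the sources used here. The deposited fold changes and p-values of each cluster against the rest are the authors' own comparisons and were not used.

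Clusters and listed genes come from the same cells, so no test was run and no interval is given. Cluster sizes were obtained with a least-squares fit, in which both shares of a gene must give 1 total in every row. It was run over genes listed for at least 2 clusters, without forcing a total of 100%. The fit was also run on simulated tables built from the same balance, with rounding as their only error. They held no corrected values, so this run checks the code and does not give the error of the sizes printed here. Genes were named from lists of neutrophil functions and cell type markers, or as the 10 with the largest share, the largest or most negative difference, or the smallest share in other cells. Other genes were named as examples of their class after their values were seen. Each gene was put in 1 of 12 classes by hand. Some listed genes are not reported here by name, and counts and medians include them. The members and the lists were chosen with earlier results of these data known. Alternatives changed the fit, the minimum difference and the rule for a shared gene. Positions are from GENCODE M21 (225 of 226 genes matched) and promoters from RefSeq on GRCm38.p6, the first window listed per gene. The scripts ran in Python 3.11.15 with pandas 2.3.3, SciPy 1.17.1 and NumPy 2.4.6.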

Additional observations from a re-analysis of the deposited data

How the results depend on the processing

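The neutrophil share of all cells was 2.10% with least absolute deviations, with rows at least 10 points apart and with genes listed for at least 3 clusters. The count of genes with the higher share in neutrophils was 168 with a difference of at least 10 points and fell to 110 at 25 points or more, since fewer genes meet the higher minimum. Genes also listed for another non-hepatocyte cluster numbered 162 of 185 with the higher share inside in both clusters, 143 of 168 at 10 points or more in both, and 175 of 200 with a share of at least 25% inside in both. With only the genes of higher share in neutrophils, class medians moved most from 42.85% to 52.55% (transcription, chromatin and RNA), from 31.45% to 40.9% (metabolism, trafficking and other) and from 51.5% to 60.8% (granule and antimicrobial), and the median remaining share was 20.7% under each fit. The depth of the libraries is unknown, the tables give no number of cells, there is 1 library per condition, and a gene not listed may still be expressed, which limits every statement on absence.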

Other observations

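Among the 225 genes placed on GRCm38, 26 lay within 100 kb of another gene of the list, in 16 pairs. Tyrobp and Hcst, adaptors that pair with activating receptors, are 0.127 kb apart on chromosome 7. They differed in the cells that list them: Hcst was found in 49.8% of neutrophils, 25.8% of all other cells and 67.6% of T cells, and Tyrobp in 98.3% of neutrophils and 58.9% of Kupffer cells. Cd3d, the T cell receptor chain found in 43.0% of neutrophils, lies 91.8 kb from Jaml on chromosome 9, which was also at 43.0%. Outside the cluster they were at 13.1% and 12.9%.

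Of the 40 genes also listed for the cluster Red blood cell, 34 had a larger share there than in neutrophils and 6 a smaller one. The medians of the 40 were 61.9% there and 39.9% in neutrophils. Cd24a, a surface glycoprotein of developing blood cells, was at 98.8% there and 43.0% in neutrophils, Ctse at 95.0% and 21.5%, and Lbr, the lamin B receptor that shapes the lobed neutrophil nucleus, at 80% and 35%. Mxd1 was at 47.5% there and 81.9% in neutrophils.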
